A study of Mus musculus with 107 samples.

Results

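Neural progenitor cells (NPC) given 20% fetal bovine serum (FBS) were compared with the same cells given 5%, and cells given 10% were used to place each gene on the path between those doses. The libraries were chosen by their titles, as 4 replicates with 5%, 4 with 10% and 4 with 20% FBS, none of which received CNTF, and they make up 12 of the 107 samples in the series. The cells were NPC grown from C57BL/6 mouse embryonic stem cells carrying RiboTag, a haemagglutinin tag on a ribosomal protein, so that the RNA sequenced was the ribosome-bound RNA pulled down with that tag. For all 12 samples EGF and FGF were lowered from 100 to 1 ng/ml for 4 days, the medium the study calls spontaneous differentiation. Serum at 5, 10 or 20% of the volume was the only addition that differed. The cells come from 1 stem cell line, and the labels do not say that replicates were separate cultures, so the p-values measure only the spread between these samples. The labels give no batch, so a batch shared by a dose and the dose itself cannot be told apart.

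Serum carries growth factors, lipoproteins, iron bound to transferrin and bioactive lipids, and in many cells it acts on serum response factor (SRF) and on YAP, which drive genes of the actin cytoskeleton and matrix. Neural progenitors exposed to serum or to bone morphogenetic proteins are known to leave the neurogenic and oligodendrocyte programmes, in which basic helix-loop-helix factors act. An astrocyte, in turn, is defined by its intermediate filament, gap junctions, potassium channels and transporters for glutamate and GABA.

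Each library held 64455308 to 82432622 gene counts, and 15633 of the 27179 genes had enough counts to be tested. CPM values below are counts scaled to a common library size by the trimmed mean of M values, log2FC is a log2 fold change of the higher against the lower dose, and a differentially expressed gene (DEG) has an adjusted p below 0.01 in edgeR's quasi-likelihood test over all 15633 genes. The progenitor gene Sox2 (459 to 627 CPM) and the progenitor lipid carrier Fabp7 (582 to 1300 CPM) were present in every library. The first principal component held 53.8% of the variance and ordered the doses without overlap, with scores of −71.9 to −28.5 at 5%, −18.5 to 15.0 at 10% and 38.4 to 45.6 at 20%. The median SD of a gene's log2 CPM was 0.147 at 5%, 0.151 at 10% and 0.111 at 20% FBS. The 5% library of replicate 2 stood apart on that component (−71.9, others at 5% −47.2 to −28.5) and in oligodendrocyte lineage genes. Several results that rest on it are given with and without it. The 10% library of replicate 2 had the lowest score on the second component (−37.7), which held 8.6% of the variance.

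Between 5 and 20% FBS 4205 genes were DEGs, 26.9% of those tested. Of these, 2071 were higher with more serum (13.2%) and 2134 lower (13.7%), and 1394 changed by at least 1 log2 unit, 708 upwards and 686 downwards. Over all tested genes the median log2FC was −0.0072 and the median size of the change 0.26, against 0.70 among DEGs. All 4 libraries at 20% lay above all 4 at 5% for 3058 genes (19.6%) and below them for 3221 (20.6%). Each doubling taken alone gave fewer calls. From 5 to 10% there were 1083 DEGs (6.93%), 533 higher (3.41%) and 550 lower (3.52%), and from 10 to 20% there were 519 (3.32%), 245 higher (1.57%) and 274 lower (1.75%). The count of the first doubling depended on single libraries, and was 619 and 620 without replicates 2 and 3 at 5% and 490, 463 and 665 without replicates 1, 3 and 4 at 10%. The count of the second doubling was 311 and 238 without replicates 1 and 3 at 10%, and 187, 147 and 161 without replicates 1, 2 and 3 at 20%.

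The genes with the largest changes between 5 and 20% are named next. Of the falls, Gpr17 is in the oligodendrocyte lineage list below, and the paper uses Tnr as a marker of that lineage. Hes5 and Dll3 are in the progenitor and Notch list. The largest rises among genes above 10 CPM in a group were Calb1 (calbindin, a calcium buffer; log2FC 4.35, SE 0.578), Ifitm1 (an interferon-induced membrane protein; 4.10, SE 0.188), Tpm2, Gprc5a (an orphan receptor; 3.69, SE 0.342), the aldehyde oxidase Aox3 (3.34, SE 0.234) and Acta2. The largest falls were Gpr17, Hes5, Dscaml1 (a neural adhesion molecule; −6.05, SE 0.870), the matrix glycoprotein Tnr (−5.70, SE 0.660), Omg (oligodendrocyte myelin glycoprotein; −5.46, SE 0.567) and Dll3. Without replicate 2 at 5% the falls of Dscaml1 and Tnr were −5.41 and −5.09, and without replicate 4 at 5% the rise of Calb1 was 5.19. Ifitm1 (chr7:140967429-140969827, mm10) stood at 5.55, 4.77, 4.81 and 5.55 CPM at 5% FBS, at 29.3, 32.1, 20.0 and 17.7 at 10% and at 77.1, 85.7, 85.3 and 106 at 20%. Its 3 groups did not overlap, and both doublings were DEGs (log2FC 2.26 and 1.84).

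**Figure D1:**
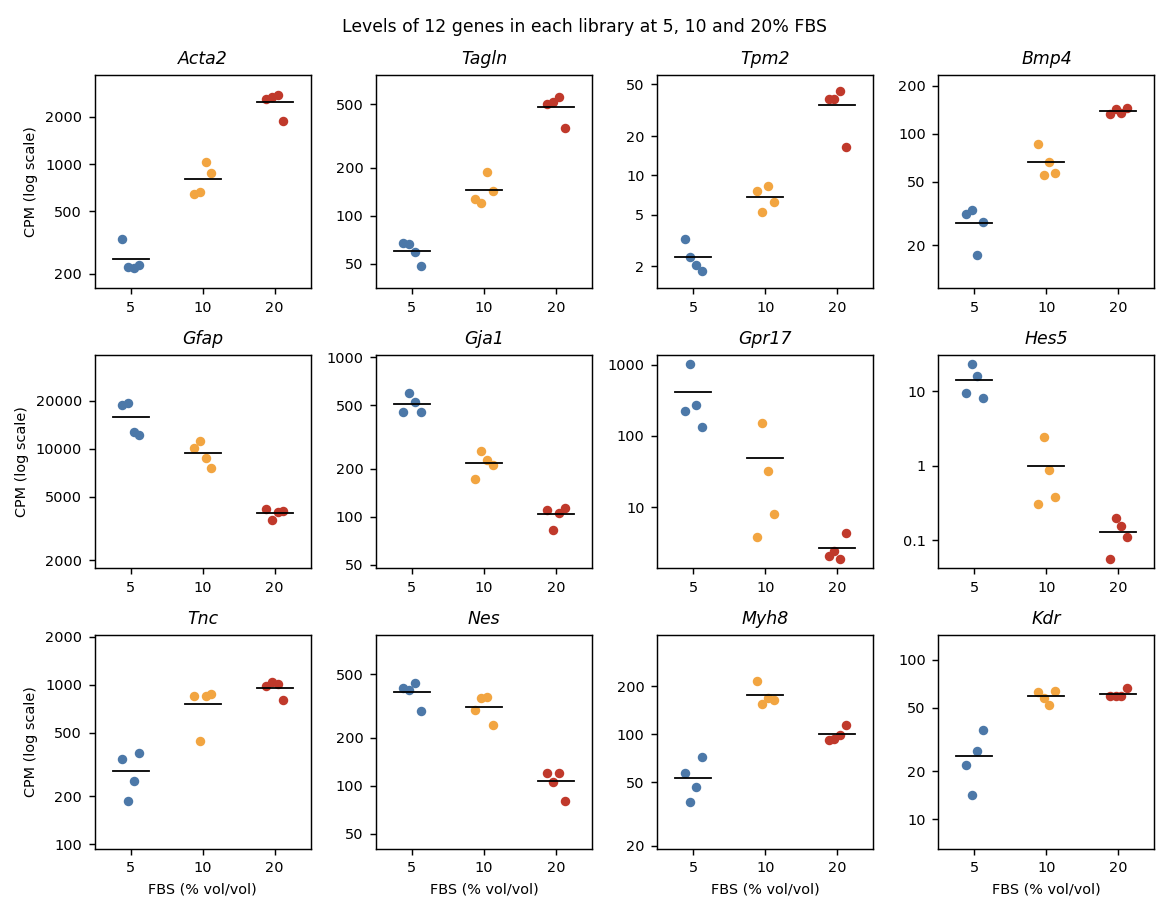
CPM (log axis) of 12 genes in each of the 4 libraries at 5, 10 and 20% FBS, with points for libraries and black lines for group means. Acta2, Tagln, Tpm2 and Bmp4 climb at both doublings, Gfap, Gja1, Gpr17 and Hes5 descend, Tnc and Kdr climb mainly to 10%, Nes descends mainly after 10%, and Myh8 peaks at 10%.

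Genes of the smooth muscle and myofibroblast contractile apparatus rose with serum. Of 25 tested, 18 rose and 1 fell, so that 76.0% were called beside 26.9% of all genes, and their median log2FC was 0.89 beside −0.0072 over all genes. Acta2 (alpha smooth muscle actin, chr19:34240336-34255585) stood at 333, 223, 219 and 228 CPM at 5%, at 642, 666, 1030 and 874 at 10%, and at 2580, 2670, 2750 and 1880 at 20% FBS. The groups did not overlap at any doubling, and 20% was 9.85-fold above 5% (log2FC 3.30, SE 0.193, adjusted p = 1.06e-07). Tagln (transgelin, an actin-bundling protein, chr9:45929628-45936058) had 68.0, 66.7, 59.1 and 48.5 CPM at 5%, 127, 121, 187 and 143 at 10%, and 499, 516, 557 and 353 at 20%. It rose by a log2FC of 2.99 (SE 0.172, adjusted p = 1.05e-07). Tpm2 (beta-tropomyosin, chr4:43513726-43523583) went from 3.25, 2.37, 2.03 and 1.83 CPM through 7.58, 5.21, 8.28 and 6.24 to 38.7, 38.8, 44.1 and 16.5 (log2FC 3.86, SE 0.294, adjusted p = 9.26e-07). For all 3 genes replicate 4 was the lowest library at 20%, yet it lay above every library at 10%.

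Other members of the apparatus rose as well. Myl9, a regulatory myosin light chain, rose by a log2FC of 1.08 (SE 0.067), the tropomyosin Tpm1 by 1.18 (SE 0.118), caldesmon (Cald1) by 1.34 (SE 0.209), calponin 2 (Cnn2) by 0.89 (SE 0.073) and alpha-actinin 1 (Actn1) by 0.84 (SE 0.130). Calponin 1 (Cnn1), a marker of mature smooth muscle, rose by 2.61 (SE 0.236) from a mean of 17.0 CPM to 104.3. The regulators of this programme did not pass the threshold, with log2FC of 0.18 for Srf (adjusted p = 0.285) and 0.15 for its cofactor Mrtfa (adjusted p = 0.0977). The focal adhesion protein Vcl (0.53, adjusted p = 0.0190) also missed it, and passed it without replicate 2 at 10% (adjusted p = 0.00327). The member that fell was Synpo2, an actin-binding protein of the muscle Z-disc (−0.66, SE 0.140, adjusted p = 0.00199). All 19 called members had reached a share of 0.25 to 0.75 of their log2 change at 10% FBS. Of the 25 tested, 10 were already higher at 10% than at 5% as DEGs, beside 3.41% of all genes. From 10 to 20% 9 rose as DEGs, beside 1.57% of all genes.

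Promoters were read because contractile genes are known SRF targets and SRF binds the CArG box, CC followed by 6 A or T bases and GG. In RefSeq promoter windows of 250 bases before to 50 after the start, searched on both strands, a CArG box stood in 4 of the 22 contractile genes with a window (18.2%) and in 183 of 11834 windows in all (1.55%). Of the 15 contractile genes that rose and had a window, 2 held one (13.3%). The windows around the box, on GRCm38.p6 and written along the gene's strand with the box in capitals, are given for Cnn2 (chr10:79988524-79988573, plus strand), Myl9 (chr2:156775283-156775332, plus), which both rose, and for Srf (chr17:46556195-46556264, minus) and Vcl (chr14:20929151-20929200, plus), which were not called. The 6-base spans inside the boxes differ, while the box of Cnn2 and that of Vcl read the same.
Cnn2: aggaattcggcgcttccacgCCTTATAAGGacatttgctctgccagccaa
Myl9: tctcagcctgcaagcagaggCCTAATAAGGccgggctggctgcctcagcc
Srf: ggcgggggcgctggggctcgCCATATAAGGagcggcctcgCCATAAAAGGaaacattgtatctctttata
Vcl: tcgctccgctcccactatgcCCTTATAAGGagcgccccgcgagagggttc

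The box lay 56 bases before the start in Cnn2, 161 in Myl9, 227 in Vcl, and 82 and 62 in Srf. A match to these letters is a description of the sequence and says nothing about binding.

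Targets of YAP and TEAD moved the same way on balance, 12 of 24 rising and 1 falling (54.2%, median log2FC 0.43). Ankrd1, a muscle ankyrin repeat protein, had 0.714, 0.345, 0.0873 and 0.308 CPM at 5%, 1.21, 0.736, 0.851 and 0.546 at 10% and 3.89, 2.97, 5.57 and 1.61 at 20% (log2FC 3.26, SE 0.497, adjusted p = 0.000184). The 5 and 20% libraries did not overlap, while the lowest library at 10% was below the highest at 5%. The matricellular factors Ccn2 and Ccn1 rose by 1.09 (SE 0.167) and 0.73 (SE 0.140), the BMP-binding membrane protein Crim1 by 1.28 (SE 0.237) and the LIM protein Ajuba by 0.78 (SE 0.111). The coactivators themselves, Yap1 (0.14, adjusted p = 0.0805) and Wwtr1 (0.20, adjusted p = 0.177), were not called, and the secreted kinase-like protein Fjx1 fell by a log2FC of −1.13 (SE 0.152).

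TEAD factors are known to bind GGAATG, which stood, on either strand, in 10 of 17 windows of this list (58.8%), in 10 of 22 of the contractile list (45.5%) and in 1760 of 11834 in all (14.9%). Genes that were not called held it too: Lats2, Yap1 and Wwtr1 in this list, and Mylk, Flna, Vcl and Palld in the contractile list. Here too a match says nothing about binding. Windows of 4 genes that rose are printed with the motif in capitals, CATTCC being the same motif on the other strand: Acta2 (chr19:34255494-34255539, minus), Crim1 (chr17:78200149-78200194, plus), Ajuba (chr14:54577800-54577867, minus) and Ccn1 (chr3:145650063-145650108, minus).
Acta2: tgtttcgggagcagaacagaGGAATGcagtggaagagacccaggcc
Crim1: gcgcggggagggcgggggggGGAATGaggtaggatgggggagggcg
Ajuba: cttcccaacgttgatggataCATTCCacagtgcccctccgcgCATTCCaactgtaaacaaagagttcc
Ccn1: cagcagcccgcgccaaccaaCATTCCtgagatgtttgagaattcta

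The AP-1 motif TGANTCA stood in 5 of 22 contractile windows (22.7%), in 1 of 17 of the YAP list (5.88%) and in 729 windows in all (6.16%).

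The TGF-beta and BMP pathways share serine-threonine kinase receptors and Smad proteins. Members of both lists rose with serum, and 3 BMP and Id genes fell. Among TGF-beta genes 12 of 28 rose and the others were not called (42.9%, median log2FC 0.67), and 10 to 13 rose when any one library was left out. The median was 0.563 without replicate 2 at 5% and 0.761 without replicate 1 at 5%. The accessory receptor Eng (2.28, SE 0.262), the type I receptor Acvrl1 (1.79, SE 0.198), the ligand Tgfb3 (0.91, SE 0.170), the matrix protein and target Thbs1 (2.16, SE 0.288) and the inhibitory Smad7 (0.85, SE 0.129) rose. The type II receptor Tgfbr2 had a log2FC of 0.56 (adjusted p = 0.0136) and was a DEG without replicate 4 at 5% or at 10%.

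Of 22 BMP and Id genes 9 rose and 3 fell (54.5%, median 0.41). Bmp4, a ligand that directs progenitors to the astrocyte fate (chr14:46383525-46390669), stood at 31.7, 33.2, 17.4 and 28.1 CPM at 5%, at 86.9, 55.5, 66.8 and 56.9 at 10%, and at 133, 143, 136 and 146 at 20% FBS. The groups did not overlap, and the rise was a log2FC of 2.34 (SE 0.184, adjusted p = 1.21e-06), with both doublings called. The inhibitory Smad6 rose from a mean of 37.5 CPM to 109.9 (1.55, SE 0.088), the secreted antagonist Nog by 1.07 (SE 0.127), and the target genes Id1 and Id3, which block helix-loop-helix factors, by 0.58 (SE 0.087) and 0.51 (SE 0.060). Id4 (−0.54, SE 0.091), the receptor Bmpr1b (−0.88, SE 0.094) and the Hairy-related factor Hey1 (−0.72, SE 0.092) fell.

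Interstitial matrix, crosslinking and protease genes rose in 20 of 42 cases and fell in 2 (52.4%, median 0.48). Basement membrane collagens Col4a1 (1.25, SE 0.141) and Col4a2 (1.42, SE 0.121), fibronectin (Fn1; 1.00, SE 0.165), the small proteoglycan Bgn (2.15, SE 0.183) and the crosslinking enzyme Lox (1.94, SE 0.321) rose. The fibrillar collagen genes Col1a1 (1.20, SE 0.361, adjusted p = 0.0171) and Col3a1 (−1.04, SE 0.558, adjusted p = 0.156) were not called and replicate 2 at 5% was the highest of its group for both, at 286 and 112 CPM. Without that library Col1a1 was a DEG with a log2FC of 1.82 (adjusted p = 5.19e-05), and Col3a1 stood at −0.12 (adjusted p = 0.856). Elastin (Eln) fell by a log2FC of −2.15 (SE 0.384, adjusted p = 0.000604). In a list of epithelial-mesenchymal transition factors and cadherins 8 of 14 rose and 1 fell (64.3%, median 0.62). The rises were led by Twist2 (1.83, SE 0.168), Snai2 (1.71, SE 0.249) and Snai1 (1.56, SE 0.154), and included the cadherins Cdh6 and Cdh11. Zeb1, a repressor of the same group, fell by −0.46 (SE 0.065).

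**Figure D2:**
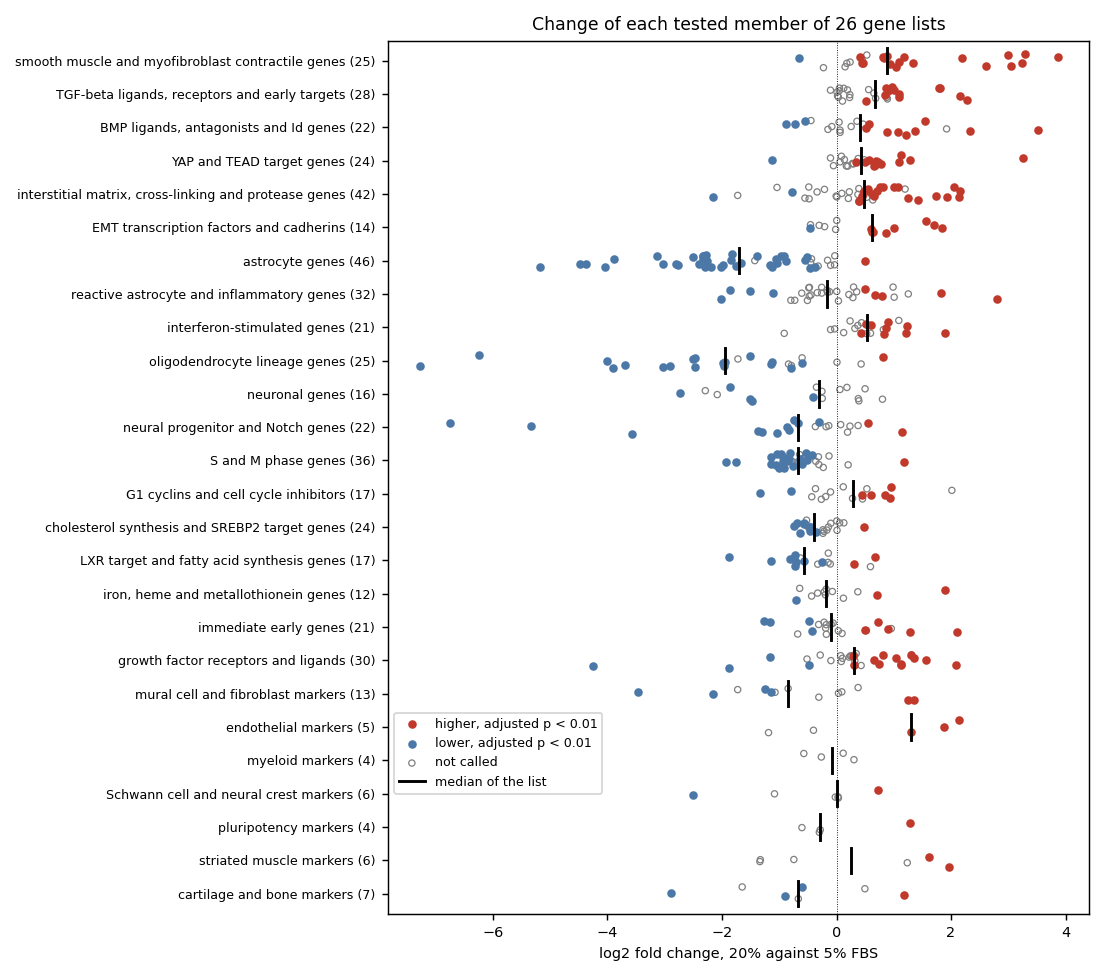
log2 fold change of 20% against 5% FBS for every tested member of 26 gene lists (number tested in brackets), with filled points for DEGs, open points for genes not called and a black bar at each list's median. The contractile list has 18 filled points to the right and the astrocyte list 36 to the left of 0.

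Astrocyte genes fell. Of 46 tested 36 fell and 1 rose (80.4%, beside 26.9% of all genes, median log2FC −1.71). As DEGs 26 were already lower at 10% than at 5%, beside 3.52% of all genes. From 10 to 20% 14 fell, beside 1.75% of all genes. Gfap (the astrocyte intermediate filament, chr11:102887336-102897200) stood at 18800, 19200, 12800 and 12100 CPM at 5%, at 10100, 11200, 8800 and 7550 at 10% and at 4180, 3590, 4020 and 4070 at 20%. The groups did not overlap, with replicates 1 and 2 at 5% well above replicates 3 and 4, and the fall was a log2FC of −1.99 (SE 0.165, adjusted p = 1.85e-06). Gja1 (connexin 43, the astrocyte gap junction protein, chr10:56377300-56390419) went from 454, 593, 519 and 454 CPM through 173, 256, 226 and 212 to 110, 82.6, 106 and 114 (−2.29, SE 0.135, adjusted p = 1.09e-07). Genes of GABA and glutamate uptake fell as well, Slc6a11 by −5.18 (SE 0.454) and Slc1a2 by −1.83 (SE 0.150). The potassium channel Kcnj10 (−1.38, SE 0.088), the water channel Aqp4 (−1.75, SE 0.352), the synaptogenic glycoprotein Sparcl1 (−2.33, SE 0.128) and the folate enzyme Aldh1l1 (−1.04, SE 0.190) fell too. The gliogenic factor Sox9 fell less, by −0.89 (SE 0.075). Clu, a secreted chaperone, was the member that rose (0.49, SE 0.119, adjusted p = 0.00493), but it was no DEG without replicate 2 or 3 at 5% or replicate 1, 2 or 3 at 20%. The summed level of the list was 39800 to 55800 CPM at 5%, 27300 to 36400 at 10% and 21000 to 22200 at 20%. In pooled cells, fewer cells of a type and less RNA in each cell cannot be told apart.

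Reactive and inflammatory genes did not share that direction. Of 32 tested 5 rose and 4 fell (28.1%, near the 26.9% of all genes), with a median log2FC of −0.16. The acute-phase inhibitor Serpina3n (−2.01, SE 0.185) and complement C4b (−1.11, SE 0.140) fell, while ceruloplasmin (Cp; 0.80, SE 0.165), annexin A2 (Anxa2; 0.50, SE 0.085) and the epithelial membrane protein Emp1 (0.67, SE 0.099) rose. Interferon-stimulated genes rose in 9 of 21 cases (42.9%, median 0.53), or in 5 without replicate 2 at 20%. Among them were the immunoproteasome subunit Psmb8 (1.23, SE 0.128) and the class I light chain B2m (0.83, SE 0.128).

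Oligodendrocyte lineage genes fell in 18 of 25 cases and rose in 1 (76.0%, median −1.94, or −1.44 without replicate 2 at 5%). Gpr17, a receptor of committed oligodendrocyte precursors, stood at 227, 1030, 276 and 133 CPM at 5%, at 3.77, 152, 31.8 and 8.01 at 10%, and at 2.04, 2.40, 1.85 and 4.38 at 20% FBS. Replicate 2 was the highest library at 5 and at 10%, where the groups overlapped, and every library at 20% was below every library at 5%. The fall was a log2FC of −7.28 (SE 1.177, adjusted p = 0.000285), and −6.31 without replicate 2 at 5%. Olig2 (a lineage-defining helix-loop-helix factor, chr16:91225550-91228677) had 246, 409, 270 and 174 CPM at 5%, 97.0, 153, 106 and 83.5 at 10% and 71.1, 76.9, 72.0 and 63.3 at 20%. Its groups did not overlap, and it fell by −1.96 (SE 0.227, adjusted p = 2.22e-05). Olig1 (−1.99, SE 0.159) and the chondroitin sulphate receptor Ptprz1 (−1.52, SE 0.107) fell as well. Sox10 fell by −2.50 (SE 0.541), or −1.74 without replicate 2 at 5%. Mbp, the myelin basic protein, had a log2FC of −1.72 that was not called (SE 0.507, adjusted p = 0.0152), though it was called without replicate 1 or 4 at 5%. Without replicate 2 at 5%, its highest library, it was −0.70 (adjusted p = 0.0502). Enpp6, an enzyme of newly forming oligodendrocytes, rose by 0.81 (SE 0.201, adjusted p = 0.00577), a call lost when any of replicates 1, 3 or 4 at 5% or 1, 2 or 3 at 20% was left out.

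Genes of the Notch pathway moved in both directions. Hes5, a repressor driven by Notch (chr4:154960626-154962372), had 9.51, 22.9, 15.9 and 7.99 CPM at 5%, 0.303, 2.39, 0.879 and 0.381 at 10% and 0.0564, 0.196, 0.153 and 0.111 at 20%. No library overlapped between doses, and the log2FC was −6.74 (SE 0.687, adjusted p = 7.86e-06). The ligand Dll3 (chr7:28293555-28301785) fell by −5.33 (SE 0.775), or −4.69 without replicate 2 at 5%, and Dll1 by −3.57 (SE 0.412), while the receptor Notch1 fell by −0.67 (SE 0.069). The ligand Jag1 rose by 1.15 (SE 0.221) and the effector Hes1 by 0.56 (SE 0.130, adjusted p = 0.00401), a call lost when any of replicates 1, 3 or 4 at 5% or 2 or 3 at 20% was left out. Over the 22 progenitor and Notch genes 11 fell and 2 rose (59.1%, median −0.67), and the falls included the RNA-binding Msi1 (−0.74, SE 0.075) and Fabp7 (−0.83, SE 0.093). Of 16 neuronal genes tested 5 fell (31.2%, near the 26.9% of all genes, median −0.30). Without replicate 2 at 20% 3 fell, and without replicate 4 at 20% 3 fell and 2 rose.

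Genes of DNA synthesis and mitosis were lower at 20% in 21 of 36 cases and higher in 1 (61.1%, median −0.67), and here the call depended on which libraries were used. Uhrf1 (a factor that carries DNA methylation through replication, chr17:56303337-56323486) stood at 34.3, 49.6, 26.6 and 19.8 CPM at 5%, at 11.6, 16.3, 15.4 and 12.4 at 10% and at 9.54, 7.63, 9.81 and 7.13 at 20%. It fell by −1.93 (SE 0.234, adjusted p = 3.00e-05). The proliferation antigen Mki67 went from 30.9, 38.5, 15.6 and 13.8 CPM through 10.5, 18.3, 16.5 and 9.67 to 5.22, 7.16, 9.29 and 7.74 (−1.75, SE 0.323, adjusted p = 0.000772). For both genes replicates 1 and 2 at 5% were the highest of the group, and the 5 and 20% libraries did not overlap. The ribonucleotide reductase subunit Rrm2 (−1.14, SE 0.165) and the replication clamp Pcna (−0.63, SE 0.098) fell. E2f1, which drives entry into S phase, was the member that rose (1.19, SE 0.174). The list had 12 and 13 calls in all without replicate 1 or 2 at 5%. It had 14, 11 and 12 without replicate 1, 2 or 4 at 20%, and 30 without replicate 4 at 5%. With any other library left out it had 17 to 22. Among G1 cyclins and inhibitors 5 of 17 rose and 2 fell (41.2%, median 0.28). Cyclin D2 (Ccnd2; 0.96, SE 0.208) and the inhibitors Cdkn1b (0.44, SE 0.075) and Cdkn1c (0.94, SE 0.145) rose, and Myc (−1.33, SE 0.189) fell.

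**Figure D3:**
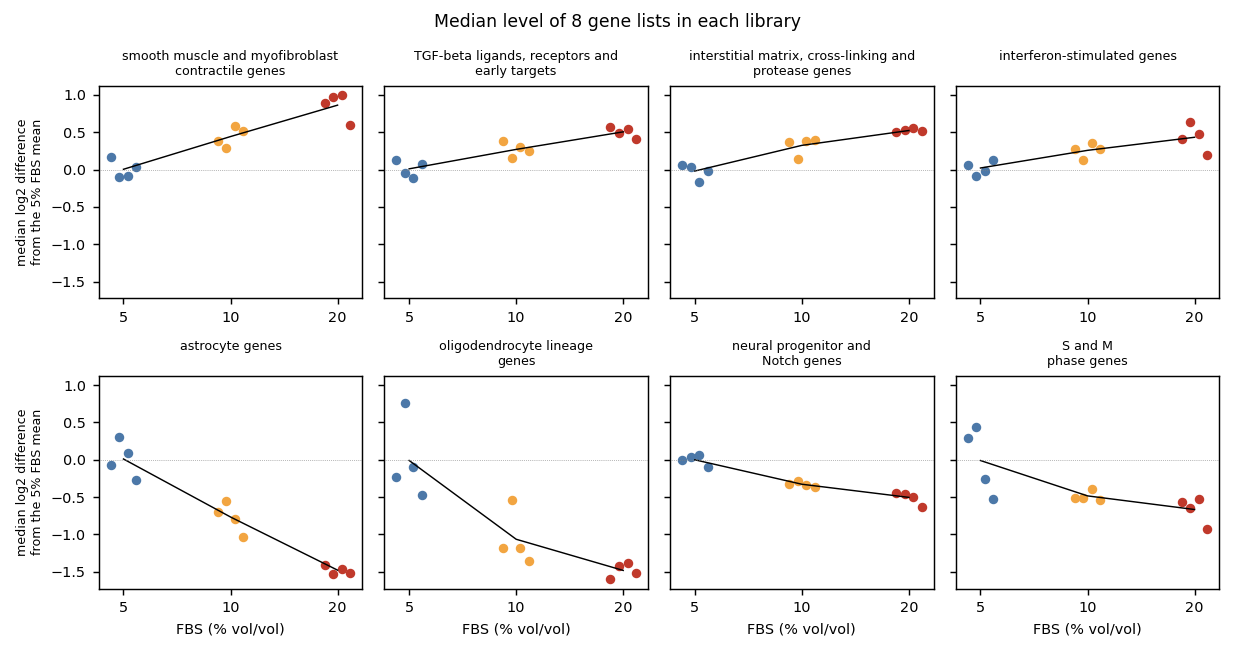
Median log2 difference from the 5% FBS mean over the members of 8 gene lists, for each library, with a line through the group means. The 4 points at 20% FBS lie below 0 for the astrocyte and oligodendrocyte lists and above it for the contractile list, and the 5% points of the oligodendrocyte list are the most spread.

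Genes of lipid synthesis fell moderately. LXR targets and genes of fatty acid synthesis, read as a single list, fell in 9 of 17 cases and rose in 2 (64.7%, median −0.57). In that list Abca1, Abcg1, Abcg4 and Lpcat3 were not called, and Mylip and the LXR gene Nr1h2 rose. The falls were thus not shared by all LXR targets. Cholesterol synthesis genes fell in 9 of 24 cases and rose in 1 (41.7%, median −0.39, or −0.285 without replicate 2 at 5%). Fads2 (a fatty acid desaturase, chr19:10062765-10101503) had 351, 486, 409 and 342 CPM at 5%, 157, 206, 187 and 165 at 10% and 116, 112, 117 and 88.4 at 20%. No groups overlapped, and it fell by −1.87 (SE 0.129, adjusted p = 4.18e-07). Scd2, another desaturase (−1.15, SE 0.100), fatty acid synthase (Fasn; −0.73, SE 0.095) and the sterol enzyme Cyp51 (−0.74, SE 0.121) fell. The sterol regulatory element TCACNCCAC was found in 1 of 17 sterol gene windows (5.88%), that of Hmgcs1, and in 172 of all 11834 (1.45%).

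Of 30 growth factor receptors and ligands 12 rose and 4 fell (53.3%, median 0.31). Igfbp4, a carrier of insulin-like growth factors (chr11:99040005-99052655), had 254, 347, 218 and 259 CPM at 5%, 726, 569, 575 and 562 at 10% and 1120, 1170, 1140 and 1170 at 20%. It rose with no overlap by 2.09 (SE 0.127, adjusted p = 1.39e-07). Igf1 (1.30, SE 0.195), its receptor Igf1r (1.03, SE 0.130) and the PDGF receptor Pdgfrb (1.36, SE 0.162) rose, and Fgfr3 (−1.17, SE 0.099) and Fgf2 (−1.88, SE 0.255) fell. Iron, heme and metallothionein genes were called in 25.0% of 12 cases, near the 26.9% of all genes, with the iron exporter Slc40a1 (1.90, SE 0.191) and ferritin light chain (Ftl1; 0.70, SE 0.115) higher, the transferrin receptor Tfrc lower (−0.71, SE 0.127) and a median of −0.19. Immediate early genes were split, 5 of 21 rising and 4 falling (42.9%, median −0.09, or 0.013 without replicate 1 at 5%). The phosphatase Dusp1 rose by 2.10 (SE 0.204) and the factor Egr3 fell by −1.16 (SE 0.25).

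Markers of other cell types were read in the same libraries. Endothelial markers summed to 17.6 to 38.1 CPM at 5%, 54.7 to 65.3 at 10% and 64.6 to 69.2 at 20%. Of 5 tested 3 rose (60.0%, beside 26.9% of all genes), but most of the sum was Kdr, and the defining marker Pecam1 did not exceed 0.205 CPM. Striated muscle markers summed to 1.19 to 3.22 CPM and myeloid markers to 3.87 to 6.23 CPM over the 3 doses. Mural cell and fibroblast markers rose in 2 of 13 cases and fell in 4 (46.2%, median −0.85, or −0.39 without replicate 2 at 5%), Pdgfrb being higher and Cspg4 (−1.15, SE 0.187) lower. Pluripotency markers were called in 1 of 4 tested (25.0%) and Schwann and neural crest markers in 2 of 6 (33.3%), beside 26.9% of all genes. Cartilage and bone markers were called in 4 of 7 (57.1%), 1 higher and 3 lower. Their part in the results above was not tested.

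The 10% libraries placed most genes midway. A library's position was set at 0 for the 5% mean and 1 for the 20% mean of each DEG, and the median over DEGs was 0.602, 0.416, 0.570 and 0.597 in the 4 libraries at 10%, against −0.203 to 0.187 at 5% and 0.975 to 1.033 at 20%. For each DEG the share of its log2 change reached at 10% was then taken, 0.5 being an equal log2 change per doubling. The median share was 0.54 (quartiles 0.40 and 0.69), 4016 of the 4205 DEGs (95.51%) had a 10% level between the others, 108 went beyond the 20% level and 81 went the other way. The DEGs were picked for their change from 5 to 20%, and that change is the divisor of the share. A 10% level between those doses was thus favoured in advance. Genes were sorted as steady (share 0.25 to 0.75), saturating (above 0.75), late (below 0.25) or reversing (both doublings DEGs in opposite directions). By this rule 3065 DEGs were steady (72.9%), 1487 rising and 1578 falling, 712 were saturating (16.9%), 378 and 334, and 427 were late (10.2%), 205 and 222. Of these, 2016 steady (65.8%), 376 saturating (52.8%) and 207 late genes (48.5%) kept their class when each of the 12 libraries was left out in turn. The number of saturating genes was 418 and 1191 without replicate 2 at 5% and at 10%, and 473 and 464 without replicates 1 and 3 at 20%, while late genes numbered 266, 257 and 278 without replicates 1, 2 and 3 at 20%.

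The classes describe shares and do not show that the doublings differ. A contrast chosen after seeing the data, the second step minus the first in the same fit, called 1 gene by edgeR (0.0064%), with 1836 genes at an unadjusted p below 0.05 (11.7%). DESeq2 called 50 genes on the same contrast, of which 20 were DEGs between 5 and 20%, with 7 in the saturating and 11 in the late class. For 2867 of the DEGs neither doubling was called alone, for 836 only the first, for 305 only the second and for 197 both.

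**Figure D4:**
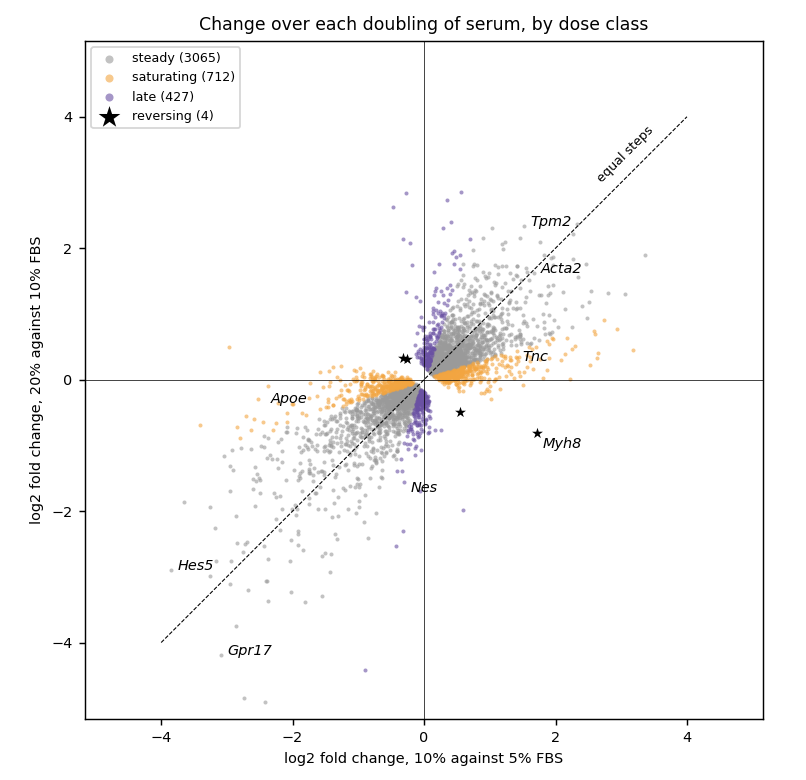
log2 fold change of 10% against 5% FBS (horizontal) and of 20% against 10% (vertical) for the DEGs between 5 and 20% and the reversing genes, coloured by class, with the line of equal steps. Steady genes (3065) lie about that line, saturating genes (712) near the horizontal axis and late genes (427) near the vertical axis.

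Among saturating genes the matrix glycoprotein Tnc (chr4:63959785-64047015) stood at 343, 186, 248 and 373 CPM at 5%, at 848, 445, 856 and 873 at 10% and at 980, 1040, 1010 and 805 at 20%. Its 10 and 20% libraries overlapped, and the first doubling was a DEG (log2FC 1.39) while the second had 0.34 (adjusted p = 0.355). Kdr, a VEGF receptor, was similar, with 21.9, 14.1, 26.9 and 36.3 CPM at 5%, 62.5, 57.6, 52.1 and 63.7 at 10% and 59.5, 59.1, 59.1 and 66.6 at 20% (total log2FC 1.30, SE 0.200). The saturating genes with the largest rises were Aox3, Cyp26b1 (a retinoic acid hydroxylase; 2.46, SE 0.472), Crygs (a crystallin; 2.08, SE 0.264) and Fgf13 (1.95, SE 0.315). For Aox3 the share was 0.776, just above the bound, and DESeq2 called its steps unequal (adjusted p = 0.000776) while edgeR did not. The saturating genes with the largest falls were B3gat2 (a glucuronyltransferase; −2.03, SE 0.312), Apoe (the lipoprotein carrier; −2.02, SE 0.307), Rap1gap (−1.81, SE 0.363) and Fxyd6 (−1.77, SE 0.297). Apoe had 3490, 7570, 5140 and 3370 CPM at 5%, 1210, 2770, 1510 and 1040 at 10% and 1250, 1330, 1230 and 1000 at 20%, so that replicate 2 was highest at each dose and the 10 and 20% groups overlapped.

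Late genes had made less than 0.25 of their change at 10%, or had moved the other way there. Nes (nestin, the progenitor intermediate filament, chr3:87971093-87980451) had 409, 398, 443 and 295 CPM at 5%, 300, 353, 361 and 240 at 10% and 120, 105, 121 and 80.7 at 20%. The 5 and 10% groups overlapped (log2FC −0.30, adjusted p = 0.215), while 20% lay below both (−1.55 against 10%, adjusted p = 0.00022). DESeq2 called the steps of Nes unequal (adjusted p = 0.0046) while edgeR did not. Sulf2, a heparan sulphatase, had 1130 to 1690 CPM at 5 and 10% and 578 to 724 at 20% (−1.23, SE 0.110). Car3, a carbonic anhydrase, fell by −1.38 (SE 0.251) although its mean at 10% was above that at 5%. The lipid regulator Srebf1 fell by −0.74 (SE 0.095), with 0.103 of the change at 10%. Late rises included Col28a1 (a collagen; 1.79, SE 0.296), Syt13 (a synaptotagmin; 1.78, SE 0.303), the growth factor Igf2 (1.56, SE 0.362) and Baalc (1.47, SE 0.171). Igf2 was no DEG without replicate 1 or 4 at 20%.

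Late genes that fell numbered 222 of the 15633 tested. Among them were 5 mitochondrially encoded subunits of respiratory complex I, of 7 tested. The other 2 were under 1 CPM at every dose and were not called. The mitochondrial genes were chosen after their values were seen. ND6 stood at 127, 107, 102 and 118 CPM at 5%, at 94.1, 125, 109 and 83.3 at 10% and at 41.5, 58.4, 39.1 and 61.7 at 20% (−1.18, SE 0.156, adjusted p = 6.24e-05). ND1 (−0.72, SE 0.087), ND2 (−1.14, SE 0.132), ND4 (−0.65, SE 0.132), ND5 (−0.93, SE 0.160) and cytochrome b (CYTB; −0.58, SE 0.124) fell in the same manner, with the second doubling between −1.04 for ND6 and −0.60 for CYTB. COX1, of complex IV, was not called, with a log2FC of 0.20 (adjusted p = 0.0228). All counts on the mitochondrial genome made up 0.300 to 0.324% of a library at 5%, 0.304 to 0.342% at 10% and 0.206 to 0.252% at 20%. These genes have near-identical nuclear copies and ND6 lies on the strand opposite to the others, so their counts are uncertain where reads could not be placed or strand was not used. Whether mitochondrial transcripts were held by the tagged ribosomes or carried over in the pulldown was not tested.

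**Figure D5:**
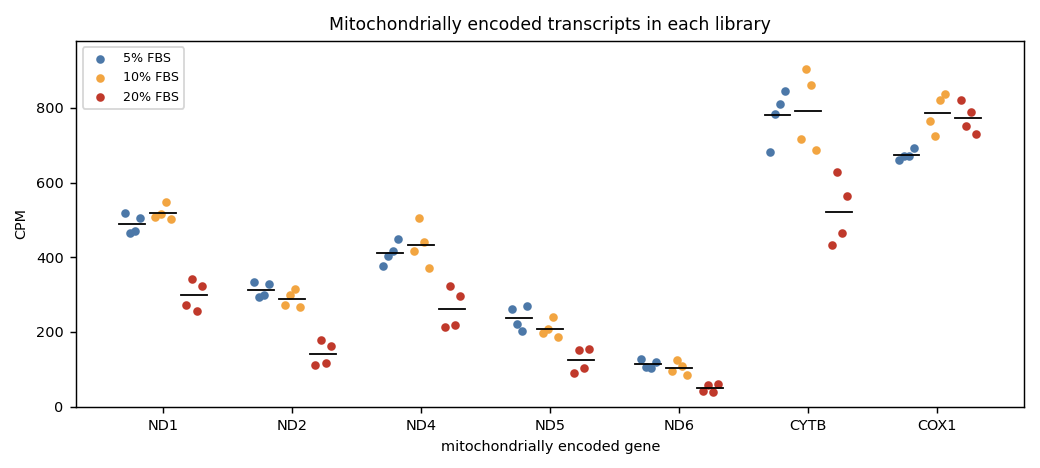
CPM of 7 mitochondrially encoded genes in each library at 5, 10 and 20% FBS, with black lines for group means. All libraries at 20% lie below those at 5 and 10% for ND1, ND2, ND4, ND5, ND6 and CYTB, and not for COX1.

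Reversing responses were rare, 4 of 15633 genes. Myh8 (a developmental myosin heavy chain, chr11:67277124-67308634) had 56.8, 37.4, 46.5 and 72.1 CPM at 5%, 215, 155, 169 and 163 at 10% and 92.4, 93.5, 98.5 and 114 at 20%. No groups overlapped, the first doubling raised it (log2FC 1.72, adjusted p = 0.000111) and the second lowered it (−0.82, adjusted p = 0.0087). With single libraries left out the adjusted p of its second doubling reached 0.0350, and it stayed below 0.01 only without replicate 2 or 4 at 5%. It was the gene whose steps edgeR called unequal (difference −2.54, SE 0.276, adjusted p = 0.00541). Mterf4, a mitochondrial rRNA-binding factor, also peaked at 10% (0.55 and −0.49), and the G protein subunit Gng10 (−0.32 and 0.34) and the adaptor Plekho2 (−0.26 and 0.31) dipped there. The count of reversing genes was 2 without any one of replicates 1, 2 and 3 at 5%, 1 or 0 without any one library at 10%, and 0 without replicate 1, 2 or 3 at 20%.

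For context, the same genes were read in the untreated medium (SPONT) and with 1% FBS, 4 libraries each, in a scaling of their own. Acta2 had means of 1.54 CPM (SD 0.476) in SPONT, 20.9 (SD 13.8) at 1%, 248.4 (SD 53.3) at 5%, 800.5 (SD 180) at 10% and 2469 (SD 397) at 20%. Gfap was higher at 1% (18770, SD 2910) than in SPONT (7933, SD 1850) and at 20% (3961, SD 250). Gpr17 stood at 1592 (SD 550) in SPONT and 1604 (SD 408) at 1%, and Hes5 at 160.9 (SD 22) and 83.8 (SD 17.1). Kdr (0.668, SD 0.202, and 0.814, SD 0.264) and Tnc (25.4, SD 3.69, and 24.3, SD 1.69) were low in SPONT and at 1%, and Ifitm1 stayed below 0.315 CPM in both.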

How the data were processed

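Ribosome-bound RNA of the 12 samples was made into poly-A libraries. The authors deposited 1 table of gene counts for each sample, which per the labels came from Trimmomatic, HISAT2 and featureCounts on mm10. The file headers name 2 read data sets per table, and 60.8 to 64.7% of the counts from 1 to 20 were even, so both mates of a pair appear to be counted and counts overstate the number of fragments. Strand use is not stated.

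The deposited counts of the 12 libraries entered 1 fit in edgeR 4.0.16 (filterByExpr with a minimum count of 10, TMM, quasi-likelihood F test), with contrasts of 20 against 5%, 10 against 5% and 20 against 10% FBS, Benjamini-Hochberg adjustment over 15633 genes and a threshold of 0.01. Standard errors were taken as the size of log2FC over the root of F. The fit was checked on simulated counts with known answers for 20 against 5% FBS. It called 22 of 100 genes changed by a log2 of 0.5 and 72 of 100 changed by 1, with 0 false calls. Only 100 genes of each size were changed among 15633, while the data gave 4205 DEGs between 5 and 20% FBS. The adjustment was thus stricter in the simulation, and its recovery need not be that of the data. A gene that was not called may still have changed by such an amount. DESeq2 1.42.0 was an alternative. Libraries of a dose differed by more than counting noise, so none was counted as a duplicate. The gene lists, members and class bounds were chosen with earlier results of these data known. Genes named are list members, the 6 largest rises and falls above 10 CPM and the 4 largest per class and direction, with the mitochondrial genes added after their values were seen. The labels do not say that a replicate number marks a shared culture or day. Deviations of like-numbered libraries had a mean correlation of −0.015 for 5 and 20%, 0.236 for 5 and 10% (3 of 4 pairs over 0.1) and −0.029 for 10 and 20%, so the numbers were not taken to pair samples, which needed every pair over 0.1. Promoters came from RefSeq (GRCm38.p6), and those of chromosome 18 were not used here. A few list members are not reported here by name.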

Additional observations from a re-analysis of the deposited data

Results flagged for a closer look

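Each named gene was searched in each group of 4 libraries for a library far from the other 3, by the gap to its nearest neighbour over the whole range (above Dixon's 95% limit). Of 417 groups of 4, from 139 genes, 27 held such a library, and chance flags about 1 in 20 groups. Replicate 2 at 5% FBS was the high library for Gpr17 (1030 CPM, the others 133 to 276), Tnr (36.7, others 10.6 to 12.7), Col1a1 (286, others 70.9 to 105), Col3a1 (112, others 17.7 to 28.2), Sox10 (5.32, others 1.13 to 1.66) and Mbp (72.5, others 11.7 to 16.9). Replicate 1 at 5% was high for Acta2 (333, others 219 to 228), Cnn1 (25.8, others 13.7 to 14.5) and Mterf4 (61.4, others 54.6 to 55.1).

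At 10% FBS replicate 1 was high for Igfbp4 (726 CPM) and low for Slc1a2 (62.0), and replicate 2 was high for Id4 (162) and Fjx1 (125) and low for Baalc (4.07), Tnc (445) and Ccnd2 (535). The rise of Tnc to 10% FBS rests on groups in which that library lay below 848 to 873 CPM in the others, but above all libraries at 5%.

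At 20% FBS replicate 4 was the library set apart in all 11 cases. It was low for Cnn1 (65.2 CPM, others 114 to 123), Crim1 (276, others 350 to 354), Fn1 (1230, others 1670 to 1690), Ccnd2 (1020, others 1250 to 1290), Notch1 (121, others 139 to 141) and Synpo2 (33.4, others 36.9 to 37.6). It was high for Col3a1 (40.9, others 14.7 to 17.5), Eln (40.2, others 24.2 to 26.9), Mterf4 (65.5, others 56.2 to 57.0), Id4 (137, others 124 to 126) and Kdr (66.6, others 59.1 to 59.5). Without it the contractile list had 19 rises and 1 fall and the astrocyte list 1 rise and 35 falls.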

How the results depend on the processing

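Of 2812 alternative values for 148 log2 fold changes of named genes, all kept their direction and 2722 their side of the threshold, with 76 no longer past it and 14 newly past it. DEGs between 5 and 20% FBS numbered 3179 to 4718 with single libraries left out, 5185 with DESeq2 and 6396 at a threshold of 0.05. From 5 to 10% they numbered 463 (without replicate 3 at 10%) to 1416 with single libraries left out, 279 with only those groups fitted, 2158 with DESeq2 and 2713 at 0.05, and from 10 to 20% 147 (without replicate 2 at 20%) to 691, 673, 1464 and 1763. With DESeq2 50 genes had unequal steps. By edgeR, reversing genes numbered 0 (without replicate 1 at 10% or replicate 1, 2 or 3 at 20%) to 4 with single libraries left out, 2 with pairs of groups fitted alone, 17 with DESeq2 and 34 at 0.05. Saturating and late genes numbered 418 to 1191 (without replicate 2 at 5% and at 10%) and 257 (without replicate 2 at 20%) to 543 with single libraries left out, 1317 and 918 at 0.05, and 1161 and 738 with steady bounds of 1/3 and 2/3. Sorted by the calls of the steps alone, 196 genes were steady. The cause of these differences was not tested, except that fewer samples or a looser threshold are part of some settings.

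The SD of the replicates is that between single libraries, and leaving 1 of 4 out shifts a group by less. List medians were thus unlikely to move by more than 1 such SD, and did so in 12 of 380 cases. With single libraries left out they ranged from 0.563 to 0.761 for TGF-beta, −2.09 to −1.44 for oligodendrocyte, −0.716 to −0.523 for progenitor, −0.426 to −0.285 for cholesterol, −0.591 to −0.512 for LXR, −0.176 to 0.013 (without replicate 1 at 5%) for immediate early and −1.04 to −0.389 (without replicate 2 at 5%) for mural genes, the last being −0.579 with no filter on low counts. The replicate numbers were not taken to pair the samples, though 3 of 4 like-numbered pairs of 5 and 10% libraries correlated over 0.1, and 3 correlated best with their own number. A replicate block gave 4127, 1196 and 540 DEGs for 20 against 5%, 10 against 5% and 20 against 10%, added Tgfbr2, Col1a1 and Mbp to the calls of 20 against 5%, and removed calls of Gng10 and Plekho2 in single doublings. The counts of unequal steps and the steps of the reversing genes under each setting were chosen after seeing the data.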
